A study of Mus musculus with 4 samples.

Results

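The interferon regulatory factors (Irf genes) were read on microarrays of T helper (Th) cells made from Bach2 WT and Bach2 KO mice, before and after a second stimulation of the T cell receptor (TCR). The members were the 8 genes Irf1, Irf2, Irf3, Irf4, Irf5, Irf7, Irf8 and Irf9, taken as a named gene family, out of 18749 genes with a named probe. They were covered by 12 probes, 4 of the genes by 1 probe each and 4 by more. All 12 probes were well above background on all 4 arrays, so no member was lost to a filter on low signals.

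Both genotypes were on the C57BL/6J background. Bach2 KO mice carried loxP-flanked Bach2 alleles (Bach2 flox/flox) and a CD4-Cre transgene, whose Cd4 promoter drives Cre in T cells that have expressed Cd4, and the study describes its WT controls as CD4-Cre mice. The labels give female spleen as the source, and ages of 8 to 12 weeks come from the methods. Naive CD4 T cells (CD44 low, CD62L high, CD25 negative) received immobilized anti-TCR-β mAb at 3 µg per ml and anti-CD28 mAb at 1 µg per ml for 2 days. A further 3 days of culture followed, with IL-2 at 2.5 ng per ml as the only cytokine listed in the labels, whereas the paper's methods state a higher concentration for cultures with IL-2. Re-stimulation was with immobilized anti-TCR-β mAb for 4 h and without added IL-2. Each of the 4 conditions had 1 array, and the sources used here do not say how many mice or cultures were behind it. No difference between conditions therefore has a replicate check, and no test was made.

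Interferon regulatory factors share a DNA-binding domain that recognizes repeats of GAAA, found in interferon-stimulated response elements (ISRE). Irf3, Irf5 and Irf7 are held inactive in the cytoplasm until kinases downstream of nucleic acid sensors phosphorylate them, and they then switch on interferon genes. Irf9 is the DNA-binding part of the complex that carries type I interferon signals to ISRE, Irf1 is itself induced by interferon-γ through sites known as GAS, and Irf2 is best known as its antagonist. Irf4 and Irf8 bind DNA weakly alone and work with partners such as Batf and Jun proteins. In T cells Irf4 is induced by the TCR and is needed for Th2 and other effector programmes.

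Promoter sequences are shown for the genes whose levels moved most between arrays, together with Irf2, because GAS and ISRE are the sites through which interferons are known to act on this family. The 8 members matched 11 promoter windows of the RefSeq table on GRCm38.p6, each of 250 bases ending at the base before a transcription start. On both strands, the letters searched were GAAA followed after 2 bases of any kind by GAAA for ISRE, TTCNNNGAA for GAS, TGANTCA for AP-1 and GGG followed after 3 bases by TTCC for κB, where N is any base. Also searched were the AP-1 letters followed after 4 bases by GAAA, the core of the composite element bound by Batf and Irf4. Capitals mark the matched letters, and the windows of Irf4 and Irf7 held none.
Irf1, chr11:53769764-53770013, plus strand: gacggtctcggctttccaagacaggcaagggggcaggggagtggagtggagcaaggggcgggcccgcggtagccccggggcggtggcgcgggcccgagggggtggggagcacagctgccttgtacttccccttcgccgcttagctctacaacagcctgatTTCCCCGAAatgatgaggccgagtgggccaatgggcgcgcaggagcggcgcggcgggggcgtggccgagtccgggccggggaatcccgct
Irf8, chr8:120736108-120736357, plus strand: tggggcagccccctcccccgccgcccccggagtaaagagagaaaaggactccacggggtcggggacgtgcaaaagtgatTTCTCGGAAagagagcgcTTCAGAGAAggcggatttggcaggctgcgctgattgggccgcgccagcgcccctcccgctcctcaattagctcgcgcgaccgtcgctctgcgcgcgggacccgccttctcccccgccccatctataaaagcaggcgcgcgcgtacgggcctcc
Irf2, chr8:46739495-46739744, plus strand: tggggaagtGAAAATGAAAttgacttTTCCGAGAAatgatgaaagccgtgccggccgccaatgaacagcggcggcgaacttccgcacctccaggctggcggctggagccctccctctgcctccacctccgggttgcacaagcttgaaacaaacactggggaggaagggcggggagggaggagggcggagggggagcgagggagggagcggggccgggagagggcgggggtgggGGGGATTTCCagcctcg
Irf4, chr13:30748983-30749232, plus strand: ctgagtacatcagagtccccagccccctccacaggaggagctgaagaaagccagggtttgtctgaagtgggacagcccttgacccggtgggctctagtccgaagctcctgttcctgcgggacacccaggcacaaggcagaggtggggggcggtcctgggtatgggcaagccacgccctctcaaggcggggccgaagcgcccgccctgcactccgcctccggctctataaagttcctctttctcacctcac
Irf7, chr7:141266425-141266674, minus strand: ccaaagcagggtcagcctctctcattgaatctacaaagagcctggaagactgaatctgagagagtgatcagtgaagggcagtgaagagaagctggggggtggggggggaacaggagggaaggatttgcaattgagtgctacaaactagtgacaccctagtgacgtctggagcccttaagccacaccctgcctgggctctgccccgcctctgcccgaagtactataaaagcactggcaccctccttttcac
GAS letters were in 3 of the 11 windows. Irf1, Irf8 and Irf9 each have a second window in the table, and those of Irf1 and Irf8 held no match to any of the letters. The Irf1 window shown carried TTCCCCGAA, from 90 to 82 bases upstream of the start, and the Irf8 window shown carried TTCTCGGAA and TTCAGAGAA, from 171 to 163 and from 153 to 145 bases upstream. Irf2 carried TTCCGAGAA from 224 to 216 bases upstream, beside ISRE letters from 241 to 232 and κB letters from 17 to 8 bases upstream. Over all 32851 windows of this length in the table, GAS letters were in 7.02%, ISRE letters in 2.98%, κB letters in 4.65%, AP-1 letters in 6.75% and the composite core in 0.0974%. A match is a description of these letters and not a site of binding, and a window without one says nothing about the factor.

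Levels are given as the log2 signal of a probe minus the 75th percentile of its array, so that 0 stands for a probe at that percentile and 1 unit is 2-fold. The level of one probe cannot be set against that of another, and only differences between arrays are compared. Replicate spots of one probe had a median SD of 0.053 to 0.064 on the log2 scale, and the scanner's own error for the member probes was 10% to 12.2% of the signal. As the measure of error for a difference, the SD of the same log2 difference between probes of one gene was taken over 3852 genes. Its median, called the spread between probes below, was 0.088 for KO minus WT before re-stimulation, 0.11 for the same after it, 0.15 for the change on re-stimulation in WT cells and 0.14 for that in KO cells. The 90th percentile was 0.317, 0.354, 0.591 and 0.531 in the same order. The differences that exceeded the median but not the 90th percentile were Irf5 before and Irf4 after re-stimulation between genotypes, Irf5 on re-stimulation in WT cells, Irf1, Irf2 and Irf9 on re-stimulation in KO cells, and Irf7 between genotypes after re-stimulation. All of these measures leave out differences between mice, cultures and hybridizations.

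**Figure D1:**
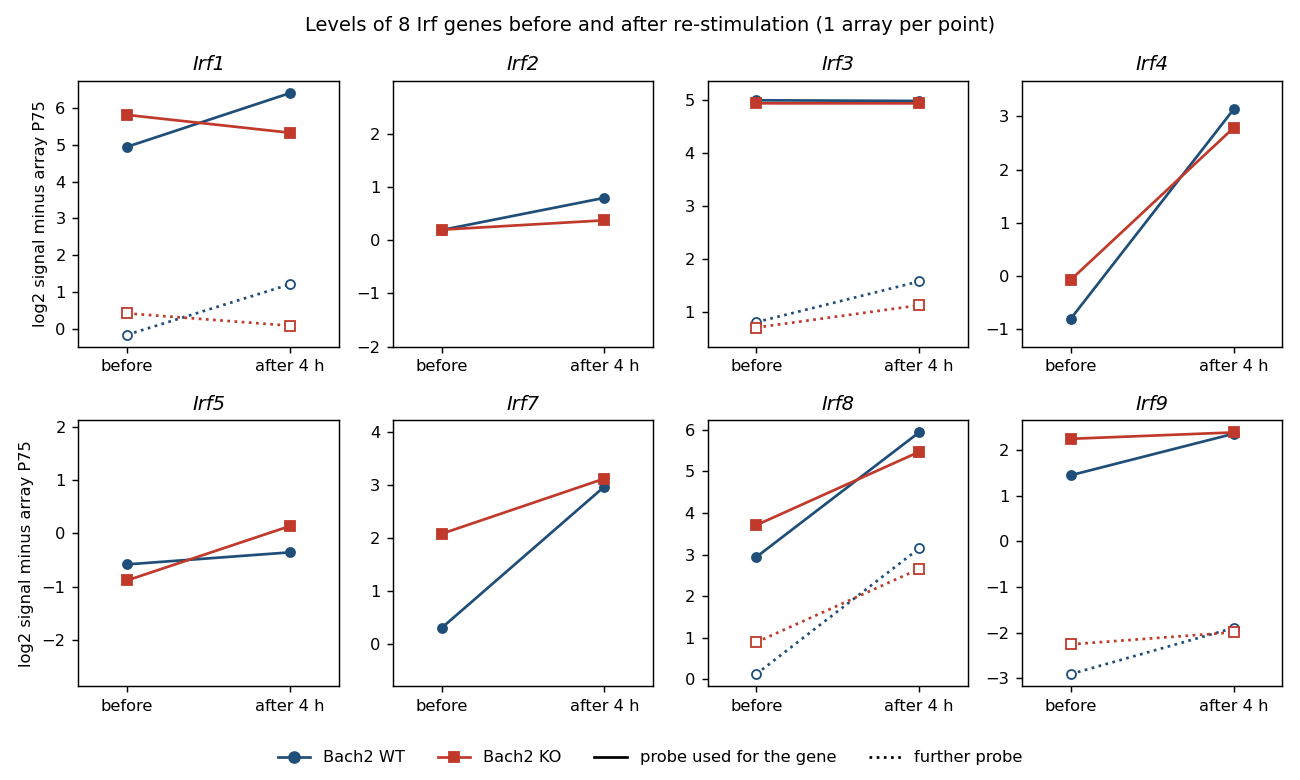
Log2 level of the 8 Irf genes (y axis, log2 signal minus the 75th percentile of the array, P75; all panels span at least 5 log2 units) before and after 4 h of re-stimulation (x axis) in Bach2 WT cells (blue circles) and Bach2 KO cells (red squares). Each point is 1 probe on 1 array, solid lines join the probe used for the gene and dotted lines a further probe; the solid WT and KO lines cross for Irf1, Irf4, Irf5 and Irf8, by more than the median spread between probes on both sides but not by more than its 90th percentile for Irf4 after and Irf5 before, and stay close to each other for the solid lines of Irf3.

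Irf1 was higher in KO than in WT cells before re-stimulation and lower after it. Its level was 4.95 in WT and 5.81 in KO cells before, and 6.40 in WT and 5.33 in KO cells after re-stimulation. Thus WT cells re-stimulated for 4 h held the highest level and resting WT cells the lowest, with the KO arrays between them. The neighbouring levels in that order were 0.59, 0.48 and 0.38 apart, each more than the spread between probes. The difference of KO minus WT was 0.87 before and -1.08 after re-stimulation, the latter a 2.11-fold lower level. WT cells gained 1.46 on re-stimulation (2.75-fold), whereas the change in KO cells was -0.48. A second probe of the same transcript (NM_008390), dimmer on every array, gave the same directions, with 0.58 and -1.12 between genotypes and 1.37 and -0.33 on re-stimulation.

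Irf8 and Irf4, the partners of Batf and Jun proteins, were among the members with the largest changes on re-stimulation in both genotypes. The Irf4 level was -0.80 in WT and -0.07 in KO cells before, and 3.13 in WT and 2.79 in KO cells after re-stimulation. Both re-stimulated arrays were thus far above both resting ones. The change was 3.94 in WT (15.3-fold) and 2.86 in KO cells (7.24-fold). Of all genes measured in each comparison, 1.23% in WT and 2.25% in KO cells had a change as high or higher. Irf4 was read by 1 probe, so no second probe checks these values.

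The Irf8 level was 2.94 in WT and 3.71 in KO cells before, and 5.94 in WT and 5.47 in KO cells after re-stimulation. The change was 3.00 in WT (7.97-fold) and 1.76 in KO cells (3.39-fold), and the second probe gave 3.02 and 1.76. For both factors KO cells started higher and ended lower. KO minus WT was 0.73 before and -0.35 after re-stimulation for Irf4, and 0.77 and -0.47 for Irf8. None of these 4 differences reached 2-fold, although each was more than 3 times the median spread between probes.

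Irf7, the factor that amplifies type I interferon production once it is induced, had the largest difference between genotypes of the 8 members. Its level was 0.31 in WT and 2.08 in KO cells before, and 2.97 in WT and 3.12 in KO cells after re-stimulation. Resting WT cells stood apart at the low end, and the re-stimulated arrays differed by 0.15. KO minus WT before re-stimulation was 1.77 (3.41-fold), and 2.01% of genes had a difference as high or higher. On re-stimulation the gain was 2.66 in WT (6.32-fold) and 1.04 in KO cells (2.05-fold), the second of which lay just past 2-fold.

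Irf9 followed a similar order at a smaller size. Its level was 1.45 in WT and 2.25 in KO cells before, and 2.36 in WT and 2.39 in KO cells after re-stimulation. The 3 higher levels were within the spread between probes of their neighbours, and the resting WT array was 0.80 below the lowest of them. The change on re-stimulation was 0.91 in WT and 0.14 in KO cells, where it turned to -0.13 when arrays were scaled to their median. The second probe gave 0.65 for KO minus WT before re-stimulation and -0.09 after it.

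Irf5 ran the other way. Its level was -0.58 in WT and -0.88 in KO cells before, and -0.36 in WT and 0.14 in KO cells after re-stimulation. KO cells thus held both the lowest and the highest of the 4 levels. KO minus WT was -0.30 before and 0.49 after re-stimulation. The change on re-stimulation was 1.02 in KO cells (2.03-fold) and 0.23 in WT cells, the latter becoming -0.07 with scaling to the median.

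Irf2 and Irf3 varied least. The Irf2 level was 0.19 in WT and 0.20 in KO cells before, and 0.80 in WT and 0.37 in KO cells after re-stimulation. The 2 resting levels did not differ beyond the spread between probes. KO minus WT was -0.42 after re-stimulation, and the change was 0.61 in WT and 0.18 in KO cells, the second turning to -0.09 with scaling to the median. The Irf3 levels (NM_016849) were 4.99, 4.93, 4.97 and 4.93 in resting WT, resting KO, re-stimulated WT and re-stimulated KO cells, a range of 0.057 in which no neighbours differed beyond the spread, and the sign of each small difference changed under at least 1 other scaling or with the mean over probes. A second Irf3 probe, of the non-coding transcript NR_045611, disagreed, with changes on re-stimulation of 0.77 in WT and 0.42 in KO cells and a KO minus WT difference of -0.45 after it.

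The counts past 2-fold are given beside those of all genes. Before re-stimulation 1 of 8, Irf7, was past 2-fold higher in KO cells and 0 were past 2-fold lower, while of 12136 genes measured 5.26% were higher and 2.82% lower. After re-stimulation 0 were higher and 1 of 8, Irf1, was lower, against 5.17% and 3.85% of 12348 genes. In WT cells 4 of 8 (Irf1, Irf4, Irf7 and Irf8) were past 2-fold higher on re-stimulation and 0 lower, against 13.2% and 13.5% of 12388 genes. In KO cells 4 of 8 (Irf4, Irf5, Irf7 and Irf8) were higher and 0 lower, against 12.4% and 13% of 12395 genes. The median over the 8 members was 0.75 and -0.20 for KO minus WT before and after re-stimulation, and 1.18 and 0.60 for the change in WT and KO cells, beside medians of all genes between -0.01 and 0.02. With scaling to Cd3e, Irf1 after re-stimulation was at -0.979 and 0 of 8 were past 2-fold, and with scaling to the median the median change in KO cells was 0.33 in place of 0.60. Irf5 and Irf7 passed 2-fold narrowly in KO cells, and 2 of the 8 were past it with scaling to the median or with normexp and quantile normalization. Among all genes past 2-fold on re-stimulation, 49.3% in WT and 48.9% in KO cells were higher. When arrays were centred on their median these shares became 29.1% and 30.8%, and relative to Cd3e they became 71.5% and 67.7%.

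**Figure D2:**
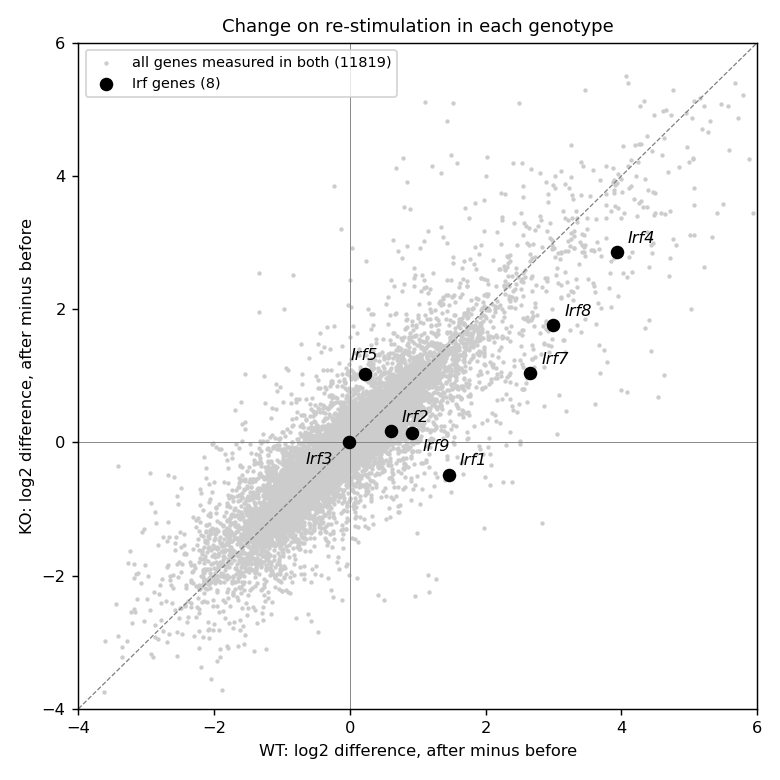
Log2 change on re-stimulation in WT (x axis) and KO cells (y axis), with 1 array per condition; grey points are 11819 genes measured in both, 57 of which lie outside the axes, black points the 8 Irf genes and the dashed line equal change. Irf1, Irf4, Irf7, Irf8, Irf9 and Irf2 lie below the line and Irf5 above it.

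The change on re-stimulation differed in size between the genotypes by more than 2-fold for 4 of the 8 members, against 4.82% of 10810 genes that all 4 arrays called well above background. This difference, the change in KO minus the change in WT cells, was -1.94 for Irf1 (3.84-fold), -1.62 for Irf7, -1.23 for Irf8 and -1.08 for Irf4. It was smaller in the same direction for Irf9, at -0.77, and for Irf2, at -0.43. Irf5 had a difference of 0.79 in the other direction and Irf3 one of 0.01. The median spread between probes of this quantity was 0.10, and the second probes gave -1.70 for Irf1, -1.26 for Irf8 and -0.75 for Irf9. For Irf4 the value ran from -1.12 to -0.90 over the other ways of processing, so it did not always reach 2-fold. KO minus WT before re-stimulation and the change in WT cells share the resting WT array, so a low signal on that array would enter both. Only the comparison before against after, and that of the change in WT against the change in KO cells, rest on separate arrays.

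**Figure D3:**
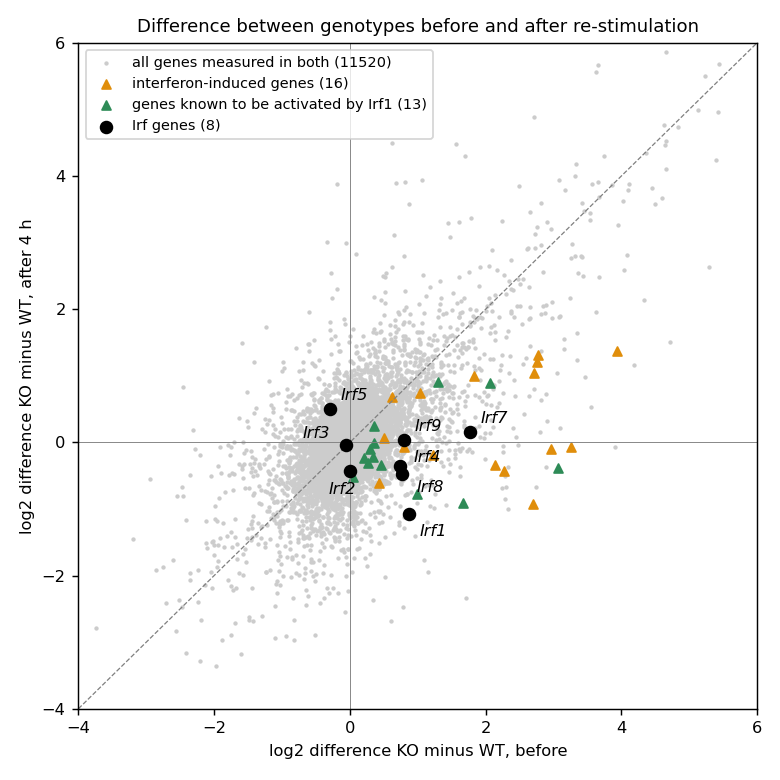
Log2 difference KO minus WT before (x axis) and after re-stimulation (y axis), with 1 array per condition; grey points are 11520 genes measured in both, 11 of which lie outside the axes, black points the 8 Irf genes, orange triangles 16 interferon-induced genes and green triangles 13 genes known to be activated by Irf1. All 16 orange and all 13 green triangles lie to the right of 0 on the x axis, while 8 of 16 and 3 of 13 lie above 0 on the y axis.

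Genes around the family were read from lists of known partners, inducers and targets. Of all genes, 5.26% were past 2-fold higher and 2.82% lower for KO minus WT before re-stimulation, and 5.17% and 3.85% after it. On re-stimulation the shares were 13.2% and 13.5% in WT cells and 12.4% and 13% in KO cells. These shares stand beside the counts of each list below. Of the partners that bind DNA together with Irf proteins, 4 of 10 measured were past 2-fold higher in resting KO cells and 0 lower, with a median of 0.74. Batf3 was at 1.77, and Batf2, not well above background in resting WT cells, was at least 3.49-fold higher. After re-stimulation 2 of 11 were higher and 1 lower, with a median of 0.02. Batf3 was at 1.75 and Batf, the partner of Irf4 in T cells, at 1.26, while Spi1, which pairs with Irf4 and Irf8 in B and myeloid cells and was well above background only on the re-stimulated WT array, was at least 2.98-fold lower. On re-stimulation 7 of 11 were past 2-fold higher in WT cells and 4 of 10 in KO cells, with 0 lower in either. Junb gained 2.27 in WT and 1.95 in KO cells, Batf3 gained 1.76 in KO cells, Spi1 was at least 4.20-fold higher in WT cells, and Batf2 was at least 33.4-fold higher in WT cells and 3.11 higher on the log2 scale in KO cells. Unlike Irf4, whose genotype difference changed sign, Batf had KO minus WT at 0.49 and 1.26. Its signals, not scaled between arrays, were 6933 and 9715 in resting WT and KO cells and 8465 and 22868 in re-stimulated WT and KO cells. Stat2, a partner of Irf9, had KO minus WT at 0.80 and -0.08, beside 0.80 and 0.03 for Irf9 itself.

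Among interferons, their receptors and receptor kinases, 1 of 8 was past 2-fold higher in resting KO cells and 0 lower. That gene was Ifng, which encodes interferon-γ, with signals of 350 and 1175 in resting WT and KO cells and a difference of 1.75, followed by the kinase Jak2 at 0.48 and the type I receptor chain Ifnar2 at -0.47. After re-stimulation Ifng was 158625 in WT and 167603 in KO cells, a difference of -0.09. At that time 1 of 9 was higher and 3 lower in KO cells, against 5.17% and 3.85% of all genes. The receptor chains Ifngr1 and Ifngr2 were at -2.19 and -1.08, and Ifnb1, encoding interferon-β, was well above background only on the re-stimulated KO array. Ifnb1 was 6.07-fold higher there than in re-stimulated WT cells, whose signal of 17.4 was not called well above background. The change on re-stimulation was 9.30 in WT and 7.46 in KO cells for Ifng and 3.49 and 3.36 for Jak2. Ifnar2 was at -1.03 in WT cells, and Ifnb1 was at least 8.74-fold higher in KO cells after re-stimulation. Past 2-fold were 2 higher and 1 lower of 8 in WT cells, against 13.2% and 13.5% of all genes. In KO cells 3 were higher and 2 lower of 9, against 12.4% and 13%.

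The sensors, adaptors and kinases upstream of Irf3, Irf5 and Irf7 were past 2-fold between genotypes at a share near that of all genes. In resting KO cells 1 of 12 was past 2-fold higher and 0 lower, against 5.26% and 2.82% of all genes, namely Tlr7, a sensor of single-stranded RNA, at 1.92, with the RNA sensors Ifih1 at 0.71 and Ddx58 at 0.49 next. Tlr7 had a signal of 25.0 in resting WT cells, near the lowest called well above background there, 15.1. That signal also enters its change in WT cells below. After re-stimulation 0 of 13 were past 2-fold either way, against 5.17% and 3.85%, the farthest being the kinase Ikbke at -0.75, the adaptor Ticam1 at 0.67 and Ifih1 at 0.60. The change in WT cells was past 2-fold higher in 3 of 12, Ifih1 at 3.25, Tlr7 at 2.16 and Ikbke at 1.15, with 0 lower. In KO cells it was so for 1 of 13, Ifih1 at 3.15, with 0 lower, and the adaptors Traf3 and Sting1 were at 0.83 and -0.79. Of all genes, 13.2% were past 2-fold higher and 13.5% lower in WT cells, and 12.4% and 13% in KO cells.

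Interferon-induced genes, the common targets of Irf9, Irf7, Irf3 and Irf1, were higher in resting KO cells. Of 16 genes with a probe all were above 0, 12 past 2-fold, with a median of 2.20. Rsad2 was at 3.94, Ifit1 at 3.26 and Oasl2 at 2.96, each an antiviral effector. After re-stimulation 4 of 16 were past 2-fold higher, 0 were lower and the median was -0.00, with Rsad2 at 1.37, Oasl1 at 1.32 and Ifi44 at 1.20 the farthest of those higher. The change was past 2-fold higher in 13 of 16 genes in WT cells, with a median of 2.71, and in 8 of 16 in KO cells, with a median of 0.88. In WT cells Ifit3 gained 4.62, Oasl2 4.44 and Rsad2 4.40. In KO cells Isg15 gained 2.02, Rsad2 1.83 and Usp18 1.82. Stat2 belongs to this list as well as to that of the partners.

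Genes known to be activated by Irf1 were above 0 before re-stimulation and mostly below 0 after it, some by less than the median spread between probes. The median of the interferon-induced genes also fell, from 2.20 to -0.00, and a part of Irf1 in either list was not tested. In resting KO cells all 13 were above 0, with 4 past 2-fold higher and a median of 0.36. The chemokine Cxcl10 was at 3.06, the interleukin-12 receptor chain Il12rb1 at 2.07 and the GTPase Gbp2 at 1.66. Cxcl10 had a signal of 22.6 in resting WT cells, near the lowest called well above background there, 15.1. That signal also enters its change in WT cells below. After re-stimulation 10 of the 13 were below 0 and 0 were past 2-fold either way, with a median of -0.23, Gbp2 at -0.92, Casp1 at 0.90 and Il12rb1 at 0.89. The change was past 2-fold higher for 5 of 13 in WT cells and 0 were lower, led by Cxcl10 at 7.62, Gbp2 at 3.79 and Gbp3 at 2.57. In KO cells 2 were higher and 1 lower, with Cxcl10 at 4.17, Gbp2 at 1.21 and the feedback inhibitor Socs1 at -1.23. The shares of all genes higher and lower were 13.2% and 13.5% in WT cells and 12.4% and 13% in KO cells, so the KO counts lay near them.

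Genes known to be bound by Irf4 with Batf in T cells were higher in KO cells at both times. In resting KO cells 6 of 9 were past 2-fold higher and 1 lower, with a median of 1.53, and after re-stimulation 7 of 12 were higher and 0 lower, with a median of 1.54. The transcription factor Maf was at 4.65 and 4.10 before and after re-stimulation, and the cytokine gene Il4 was at 2.81 before it. Il10 was at least 25.1-fold higher in resting KO cells and at 5.85 after re-stimulation, and Il21 was then at 4.15. The Il21 signal in re-stimulated WT cells was 23.4, near the lowest called well above background there, 14.5. The median change was 1.59 in WT cells, where 8 of 11 were past 2-fold higher, and 3.07 in KO cells, where 9 of 12 were, with 0 lower in either. Il4 gained 4.34 in WT and 5.12 in KO cells and Bcl6 4.38 and 4.60, while Il21 was at least 34.4-fold higher in KO cells. KO minus WT of Irf4 itself was 0.73 before and -0.35 after re-stimulation.

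**Figure D4:**
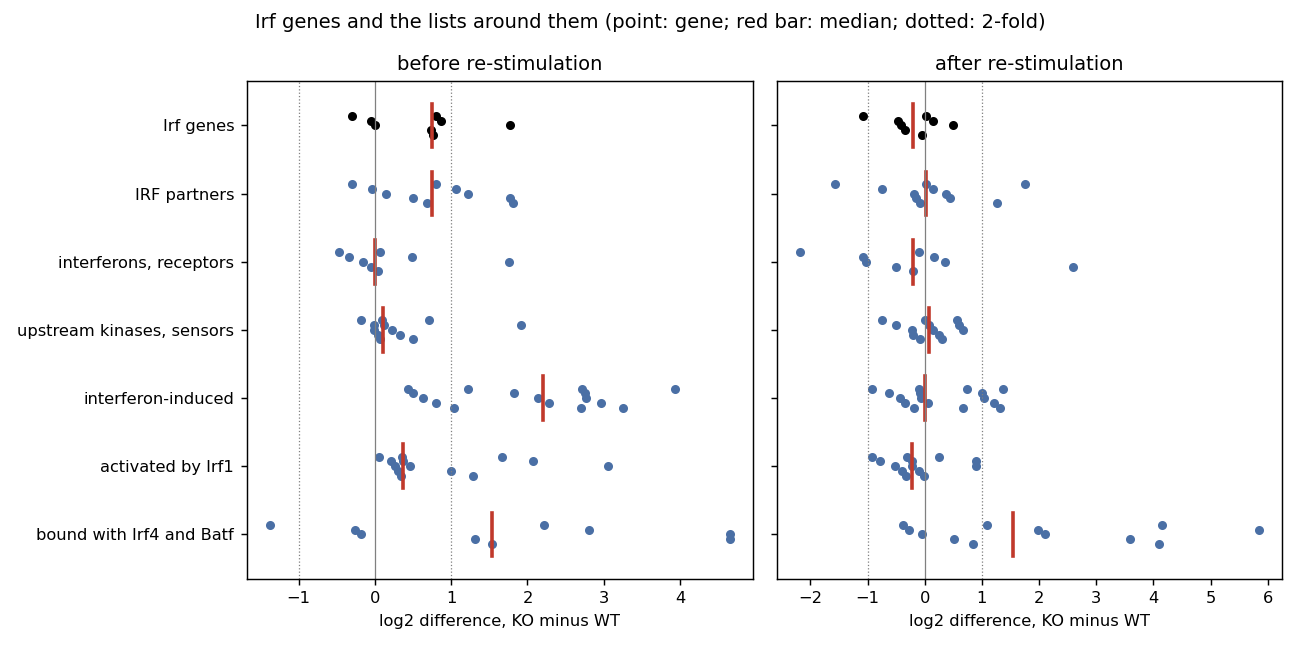
Log2 difference KO minus WT (x axis) of the Irf genes and of 6 lists around them (rows) before (left) and after re-stimulation (right), with 1 array per condition. Each point is a gene, the red bar the median of its list and the dotted lines 2-fold; the median of the interferon-induced genes is 2.20 on the left and -0.00 on the right, and that of the genes bound with Irf4 and Batf is 1.53 and 1.54.

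Outside the lists, the genes whose pattern over the 4 arrays lay nearest to that of a member were found by the root mean square distance between levels centred on their mean, over 10810 genes and 4 arrays. For Irf1 they were Irgm2 at 0.12, Gm12250 at 0.13 and Tgtp1 at 0.13. Each was higher in resting KO cells and lower in re-stimulated KO cells, at 0.98 and -0.91 for Irgm2. Irf7 lay nearest to Lmna at 0.062, Dnajb8 at 0.12 and Xaf1 at 0.14, and Irf8 to Ube2l6 at 0.12, Klf4 at 0.12 and Ap1s3 at 0.13. The nearest to Irf4 were Gramd1b at 0.085, Map2k3 at 0.17 and Stx11 at 0.19. For Irf5 they were Ahi1 at 0.024, Pcnx at 0.028 and Gramd1a at 0.034, but 433 genes (4.01%) lay within 0.2 of it, compared with 8 for Irf1, 4 for Irf4, 9 for Irf7 and 12 for Irf8. With 4 points for each gene, nearness is a description only. Irf2, Irf3 and Irf9 varied by under 1 log2 unit and were not matched.

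Irf8, Irf5 and Irf7 are also expressed by B cells, myeloid cells and dendritic cells, so markers of these were read on the same arrays. The cultures were started from cells isolated as CD4+ CD62L+, a selection meant to leave these types out. In bulk RNA, fewer cells of a type and less RNA per cell cannot be told apart. All 7 T cell markers were well above background on all 4 arrays, and the CD8 T cell marker Cd8a was so on the re-stimulated KO array alone, with a signal of 63.0. Of 7 B cell markers 2 or 3 were so, and Cd79a, Ms4a1, Pax5 and Cd22 were on none of the arrays. Of 6 myeloid markers 1 to 3 were, without Lyz2, Itgam or Fcgr1, and of 4 NK cell markers 1 or 2 were, without Ncr1 or Klra4. Of 9 dendritic cell markers 4 or 5 were, without Flt3, Clec9a or Siglech, and their summed scaled level (signal over the 75th percentile of the array) was 0.933 and 2.26 in resting WT and KO cells and 3.18 and 5.28 in re-stimulated WT and KO cells. The corresponding sums were 1.35, 1.40, 0.543 and 0.602 for B cells and 0.522, 1.07, 0.280 and 0.615 for myeloid cells. Such sums run over different probes and serve only to compare arrays. Cd74, Cd79b and Adgre1 were well above background on all 4 arrays and made up most of the dendritic cell, B cell and myeloid sums in turn. In the same order of arrays, Cd74 had signals of 289, 787, 810 and 1575, beside summed dendritic cell signals of 407, 980, 993 and 1861. KO minus WT was above 0 for 4 of 6 dendritic cell markers measured before and 3 of 5 after re-stimulation. Xcr1 and Zbtb46 were below 0 at both times. Mast cell and basophil markers were well above background for 5 of 6 on each KO array and for 1 and 0 on the WT arrays, with sums of 0.150, 2.41, 0.173 and 2.52, and Ms4a2 was on none. The part of these cells in the Irf differences was not tested.

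The genotype and sex labels also bear on each Irf difference between KO and WT. The Bach2 probe did not separate the genotypes clearly, with KO minus WT at -0.15 and -0.28 before and after re-stimulation, and whether it lies in the deleted part is not given in the sources used here. All 4 arrays are labelled female, yet 3 of 4 Y-linked genes were well above background on both KO arrays and on neither WT array, and Xist was at -1.04 and -1.19. Xist was nevertheless well above background on all 4 arrays. Its signals were 9524 and 4623 in resting WT and KO cells and 5221 and 2585 in re-stimulated WT and KO cells. Whether the KO samples held cells of both sexes was not tested. The methods state that mice of both sexes were used in vitro. Genotype and sex of the cells cannot be told apart here for any Irf gene, whereas the change on re-stimulation compares arrays of the same genotype label.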

How the data were processed

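Total RNA of the 4 cell samples was labelled with Cy3 and hybridized to one-colour Agilent arrays, 1 per condition. The deposited files hold, per the file headers, the scanner output of Agilent Feature Extraction (version 10.7), whose processed intensity is background-corrected by the software. A log2 table deposited by the authors was used as an alternative, and for at least 41001 of 41173 probes it lay within 0.01 of the log2 intensity minus the 75th percentile computed here. Its column medians were -4.09, -4.03, -3.80 and -3.77 for resting WT, resting KO, re-stimulated WT and re-stimulated KO cells, so its scale, centring and direction are those used here. The study's methods do not describe the microarray processing.

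The main values were log2 of the processed intensity minus the 75th percentile of each array, with 107 to 120 spots flagged as outliers left out and spots of one probe averaged. No spot was saturated (0 spots). Signals at the 75th percentile were 436, 434, 313 and 353 in the same order, and the share of probes called well above background was 53.6% to 54.0%. The number of arrays limits the precision. Transcript identifiers were named through the RefSeq gene table, which gave 27479 probes (66.7%) a symbol, and a gene was read from its probe with the highest mean. A gene entered a comparison if either array called its probe well above background. A value not so called was set to the lowest level called on its array if it lay under it, which makes the fold a lower bound.

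Groups came from the sample labels. With 1 array per condition no test was made, and 2-fold is a rule of size. The named genes were all probes of the 8 members, and in each list the 3 genes with the largest absolute difference in each comparison, of which some are not reported here. Of each member with a range of at least 1 log2 unit, the 3 most alike genes were named. Of the 18 interferon-induced genes listed, Mx1 and Mx2 matched no probe. The members and lists were chosen with earlier results of these data known. Alternatives were scaling to the median, to the 75th percentile over probes that all arrays called well above background, and to Cd3e, quantile normalization, normexp background correction (offset 50) on the median spot and background signals with quantile normalization, the log2 table, the mean over probes, a filter that asks for both arrays, no filter and no floor, flagged spots kept, and a 3-fold rule. Scripts were tested on simulated data. Python 3.11.15, numpy 2.4.6, pandas 2.3.3, R 4.3.3 and limma 3.58.1 were used.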

Additional observations from a re-analysis of the deposited data

Results flagged for a closer look

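Some Irf genes differed in opposite directions under the same contrast by more than the median spread between probes on either side, with 1 array per condition, and the difference between the contrasts was not tested. KO minus WT before and after re-stimulation was 0.865 and -1.08 for Irf1, 0.73 and -0.35 for Irf4, -0.30 and 0.49 for Irf5, and 0.77 and -0.47 for Irf8. The change on re-stimulation in WT and KO cells was 1.46 and -0.48 for Irf1.

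The same was seen among the genes named from the lists, again untested. KO minus WT before and after re-stimulation was 0.49 and -0.20 for Ddx58, 0.12 and -0.51 for Sting1, 2.70 and -0.92 for Ifit3, 3.06 and -0.39 for Cxcl10, 1.66 and -0.92 for Gbp2, 0.99 and -0.78 for Gbp3, and 0.46 and -0.34 for Socs1. For Batf2 it was 1.81, a lower bound, and -0.15. The 3.06 of Cxcl10 rested on a resting WT signal near the lowest called well above background. On re-stimulation Ddx58 was at 0.46 in WT and -0.23 in KO cells.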

How the results depend on the processing

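No paired analysis was possible because each condition has 1 array. Among 400 values of single Irf genes recomputed in other ways, 342 stayed within the spread between probes, 55 moved beyond it and 3 that had exceeded it changed sign. Many of the 342 could hardly move. Every Irf probe was well above background on every array, so changing the filter or the floor left these values as they were. Keeping flagged spots and the log2 table gave nearly the main values, and the mean over probes changes nothing for genes with 1 probe. The count of 342 is thus no measure of stability. All 3 sign changes came with scaling to the median: on re-stimulation Irf5 in WT cells was then at -0.0711, and in KO cells Irf2 was at -0.0888 and Irf9 at -0.125. The Irf1 difference between the changes in KO and WT cells ran from -1.98 to -1.82, that of Irf7 from -1.66 to -1.53 and that of Irf8 from -1.27 to -1.20. The cause of the shifts listed here was not tested. Relative to Cd3e, the median of all genes shifted by 0.14 and 0.10 (KO minus WT before and after) and by 0.30 and 0.26 (change in WT and KO cells), and with median scaling the changes in WT and KO cells shifted by -0.30 and -0.27. Leaving out the filter and the floor shifted them by 0.34 and 0.29 and gave 59.5% and 59.7% higher among genes past 2-fold on re-stimulation, against 49.3% and 48.9%.

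With scaling to Cd3e, 2 Irf genes were past 2-fold before re-stimulation in place of 1, and 0 after it in place of 1. The Irf medians were then 0.89 (KO minus WT before), 1.48 (change in WT) and 0.85 (change in KO), and the counts were 2 interferons and receptors in place of 4 after re-stimulation and 2 upstream genes in place of 1 on re-stimulation in KO cells. With scaling to the median, the Irf medians of the change were 0.89 in WT and 0.33 in KO cells, and in KO cells 2 Irf genes in place of 4 and 2 upstream genes in place of 1 were past 2-fold. With normexp and quantile normalization the Irf median before re-stimulation was 0.65, with 2 partners in place of 4 and 0 upstream genes in place of 1. The change then passed 2-fold in WT cells for 4 partners in place of 7 and 5 genes bound with Irf4 and Batf in place of 8, and in KO cells for 2 Irf genes in place of 4 and 2 upstream genes in place of 1.

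Under the 3-fold rule, KO minus WT before re-stimulation counted 2 partners in place of 4 and 4 genes bound with Irf4 and Batf in place of 7. After re-stimulation it counted 0 Irf genes in place of 1, 1 partner in place of 3, 2 interferons and receptors in place of 4 and 0 interferon-induced genes in place of 4. The change in KO cells counted 2 Irf genes in place of 4, 4 interferon-induced genes in place of 8 and 1 gene activated by Irf1 in place of 3. With the mean over probes, and with no filter and no floor, 1 upstream gene in place of 0 was past 2-fold after re-stimulation, and the latter gave 2 in place of 1 on re-stimulation in KO cells. With both arrays well above background, 5 genes bound with Irf4 and Batf in place of 8 passed in WT cells.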
